A study of Mus musculus with 12 samples.

Results

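Axon guidance ligands and receptors were examined in granule cell progenitors of the cerebellum, which divide before they become granule neurons, from Znhit3 conditional knockout (cKO) and control mice at postnatal day 3 (P3). The genes were chosen by name and biotype: protein-coding genes whose symbols belong to the ephrin, Eph, class 3 to 7 semaphorin, plexin, neuropilin, Slit, Robo, netrin, netrin-G, Unc5 and Dcc families. This gave 71 of the 31091 genes in the deposited table. The cKO group held 3 libraries labelled with the Znhit3 conditional knockout genotype, and the control group held 3 libraries labelled WT. The driver of the deletion, the floxed allele, the strain and whether replicates came from separate animals are not named in the labels, so p-values measure the spread between these libraries, which may be technical. The libraries held between 29119803 and 40281292 reads in cKO and between 32278245 and 52961445 reads in control. Libraries of the same genotypes at P6 belong to the series and were not analysed here.

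Guidance cues are secreted or membrane-bound proteins that steer growing axons and migrating neurons by attraction or repulsion. Ephrins bind Eph receptor tyrosine kinases, semaphorins bind plexins with or without neuropilin coreceptors, Slits bind Robos, and netrins bind Dcc and Unc5 receptors. In the postnatal cerebellum the same molecules act on granule cells while these divide in the external granular layer and then migrate inward, and they also pattern blood vessels. Levels below are FPKM, which are scaled to gene length, so genes may be compared with each other. A difference is the cKO value minus the control value in log2(FPKM + 1), a scale that compresses changes of low genes. A gene was called higher or lower at a Benjamini-Hochberg adjusted p under 0.05 from limma, fitted over the 13538 genes that averaged 1 FPKM or more.

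Promoter sequences are shown for the called guidance genes with a single annotated start that had the largest positive and the largest negative log2(FPKM + 1) difference at 5 FPKM or more in the higher group, Plxnd1 and Ntn4, and for the called genes with a single annotated start whose promoter held the letters CAGCTG, Plxnb3 and Robo4. Each is the 250 bases before the RefSeq start on build GRCm38.p6, 5′ to 3′ on the gene's strand, and capitals mark CAGCTG. The Plxnd1 window was chr6:115995006-115995255, minus strand, that of Ntn4 chr10:93640799-93641048, plus strand, that of Plxnb3 chrX:73756853-73757102, plus strand, and that of Robo4 chr9:37401722-37401971, plus strand.
Plxnd1: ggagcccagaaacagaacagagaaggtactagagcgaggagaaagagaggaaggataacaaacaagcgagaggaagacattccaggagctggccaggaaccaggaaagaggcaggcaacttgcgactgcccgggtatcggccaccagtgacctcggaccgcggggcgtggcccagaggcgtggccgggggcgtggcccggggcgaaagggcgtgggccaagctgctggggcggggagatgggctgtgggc
Ntn4: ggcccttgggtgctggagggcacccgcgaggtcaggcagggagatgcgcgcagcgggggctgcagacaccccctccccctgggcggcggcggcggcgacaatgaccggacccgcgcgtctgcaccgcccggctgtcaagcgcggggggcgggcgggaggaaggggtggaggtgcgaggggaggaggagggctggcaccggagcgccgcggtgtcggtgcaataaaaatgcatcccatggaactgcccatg
Plxnb3: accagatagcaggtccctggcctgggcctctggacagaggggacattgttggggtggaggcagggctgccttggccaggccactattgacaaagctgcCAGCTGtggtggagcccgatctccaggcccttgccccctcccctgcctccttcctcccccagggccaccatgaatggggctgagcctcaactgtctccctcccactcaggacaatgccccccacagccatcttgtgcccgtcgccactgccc
Robo4: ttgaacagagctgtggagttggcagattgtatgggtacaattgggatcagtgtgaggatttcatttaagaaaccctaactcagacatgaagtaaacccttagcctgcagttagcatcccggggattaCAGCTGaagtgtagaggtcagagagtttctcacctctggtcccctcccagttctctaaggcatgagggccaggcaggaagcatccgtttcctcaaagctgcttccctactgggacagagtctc
CAGCTG is an E-box of the kind bound by basic helix-loop-helix factors such as ATOH1, and it reads the same on both strands. It was found in 12 of the 77 promoters listed for 61 of the guidance genes, which is 15.6%, against 13.0% of all 32851 promoters. Among promoters of called genes it was found in 3 of 19 for genes higher in cKO and in 1 of 8 for genes lower in cKO. CCGGAAG, searched on both strands as a core bound by ETS factors, was found in 2.60% of the guidance promoters and 6.91% of all promoters, and in no promoter of a called gene. The guidance promoters thus held neither run of letters at a share far above that of promoters in general, and a match is a description of the letters only.

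Znhit3 itself measured 4.03, 4.01 and 4.57 FPKM in cKO libraries and 9.15, 8.62 and 8.58 FPKM in control libraries, so the cKO mean was 47.8% of the control mean. The groups did not overlap, and p was 0.1 by an exact permutation test, two-sided, which cannot go lower with 3 against 3 libraries.

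The guidance genes spanned a wide range of levels and a few dominated. Plxnb2, a plexin that binds class 4 semaphorins and is known to act in mouse granule progenitor proliferation, was the most abundant at 153 ± 4.02 FPKM in cKO and 174 ± 6.79 FPKM in control (SD, n = 3 each). It made up 21.1% of the summed FPKM of the 71 genes in cKO and 23.8% in control. Sema7a, a semaphorin anchored in the membrane by a lipid that binds Plxnc1 and integrins, followed at 95.8 ± 0.0809 FPKM in cKO and 100 ± 1.35 FPKM in control. The netrin receptor gene Dcc came next at 27.9 ± 0.829 FPKM in cKO and 25.6 ± 1.04 FPKM in control, then Plxnb1 at 23.8 ± 0.583 FPKM in cKO and 21.9 ± 0.836 FPKM in control. Below these, Plxna3, Ephb2, Sema6d, Ntn1, Sema6a and Sema4c lay between 16.7 and 21.1 FPKM in either group, with SDs of up to 1.31 FPKM, in an order by the mean over both groups. The summed level of the 71 genes was 721 to 725 FPKM in cKO libraries and 728 to 737 FPKM in control libraries.

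**Figure D1:**
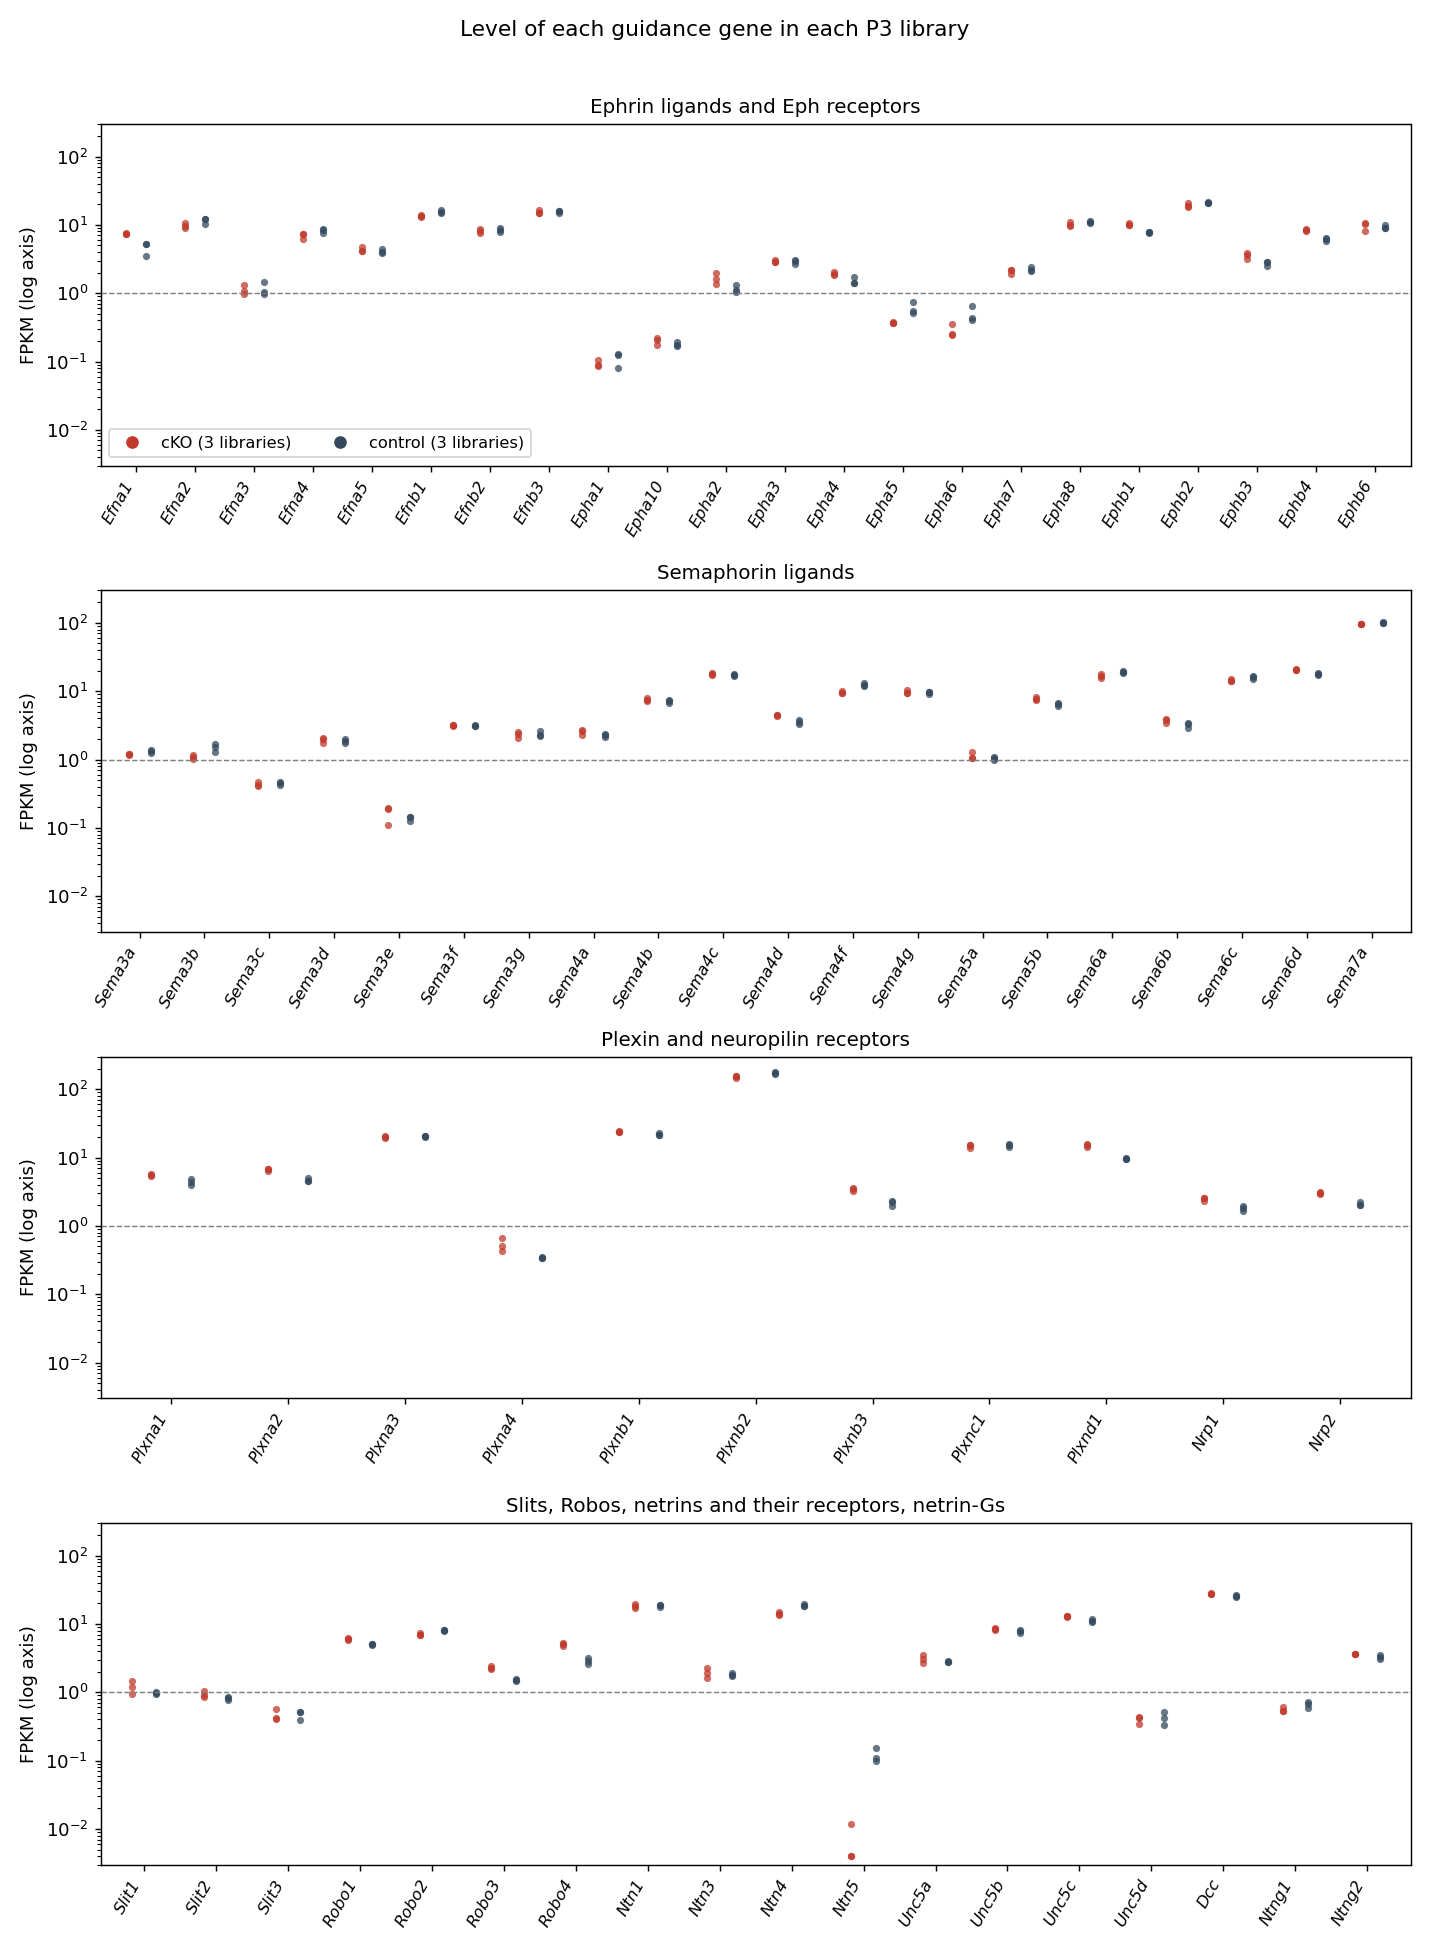
Level of each of the 71 guidance genes in FPKM (log axis) in each P3 library, with the 3 cKO libraries left of the 3 control libraries for each gene. The dashed line is 1 FPKM, values of 0 are drawn at the bottom of the axis, and Plxnb2 stands highest at 153 FPKM in cKO and 174 FPKM in control.

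Of the 71 genes 59 reached the mean of 1 FPKM and were tested, and 12 did not. In cKO 16 were called higher and 6 lower, which is 37.3% of those tested, against 19.1% of all tested genes. Called higher were 27.1% of the guidance genes tested against 13.4% of all genes, and called lower were 10.2% against 5.74%. The rises fell mostly on receptors: of 28 receptor genes tested 12 were higher and 2 lower, with a median difference of 0.21, while of 30 ligand genes tested 4 were higher and 4 lower, with a median of 0.00. The median difference was 0.06 over the 59 genes and 0.03 over all tested genes. Values of the groups did not overlap for 33 of the 59 genes, or 55.9%, against 40.5% of all tested genes. Most changes were small, and 3 of the 22 called genes reached 1.5-fold on this scale.

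The balance of rises and falls moved with the scaling and the method. It was 17 higher and 3 lower with TPM scaling and 10 and 6 with quantile normalization. Once a trend with gene length had been removed it was 10 and 7. The guidance genes called were 33.9%, 27.1% and 28.8% in these settings, against 22.1%, 14.1% and 16.3% of all tested genes. The authors' deposited table gave 20 higher and 13 lower, or 47.8%. It called 23.1% of its tested genes, 11.4% higher and 11.6% lower. All 22 genes called by limma were called in the same direction there. The guidance genes were long, with a median deposited gene length of 6493 bases against 4219 for all tested genes. Of the 22 called genes 10 held their call in every alternative in which they were tested, 17 for Nrp2, Plxnb3, Robo3 and Robo4, which average under 5 FPKM, and 18 for the others. These were Ephb1, Ephb4, Nrp2, Plxna2, Plxnb3, Plxnd1, Robo3 and Robo4, all higher, with Ntn4 and Sema4f, both lower. With no filter on low values Efna1, Efnb1, Nrp1, Plxna1, Plxnb2, Robo1, Robo2, Sema4d, Sema5b, Sema6a and Unc5c lost their calls. With a replicate block, which adds the replicate number to the fit, Efnb1, Plxna1, Plxnb2, Robo1, Robo2, Sema4d, Sema6a and Unc5c lost theirs. Their limma adjusted p-values were then between 0.052 and 0.089. Without single libraries the counts were between 11 and 15 higher and between 2 and 5 lower. The guidance genes called were then 22.0% to 28.8% of those tested, beside 8.92% to 16.2% of all tested genes. There were 2 lower without cKO replicate 2, cKO replicate 3 or control replicate 1, and 3 lower without control replicate 3. Of the called genes, 10 overlap another gene of the table, all below 1 FPKM, and the use of strand in counting is not given.

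**Figure D2:**
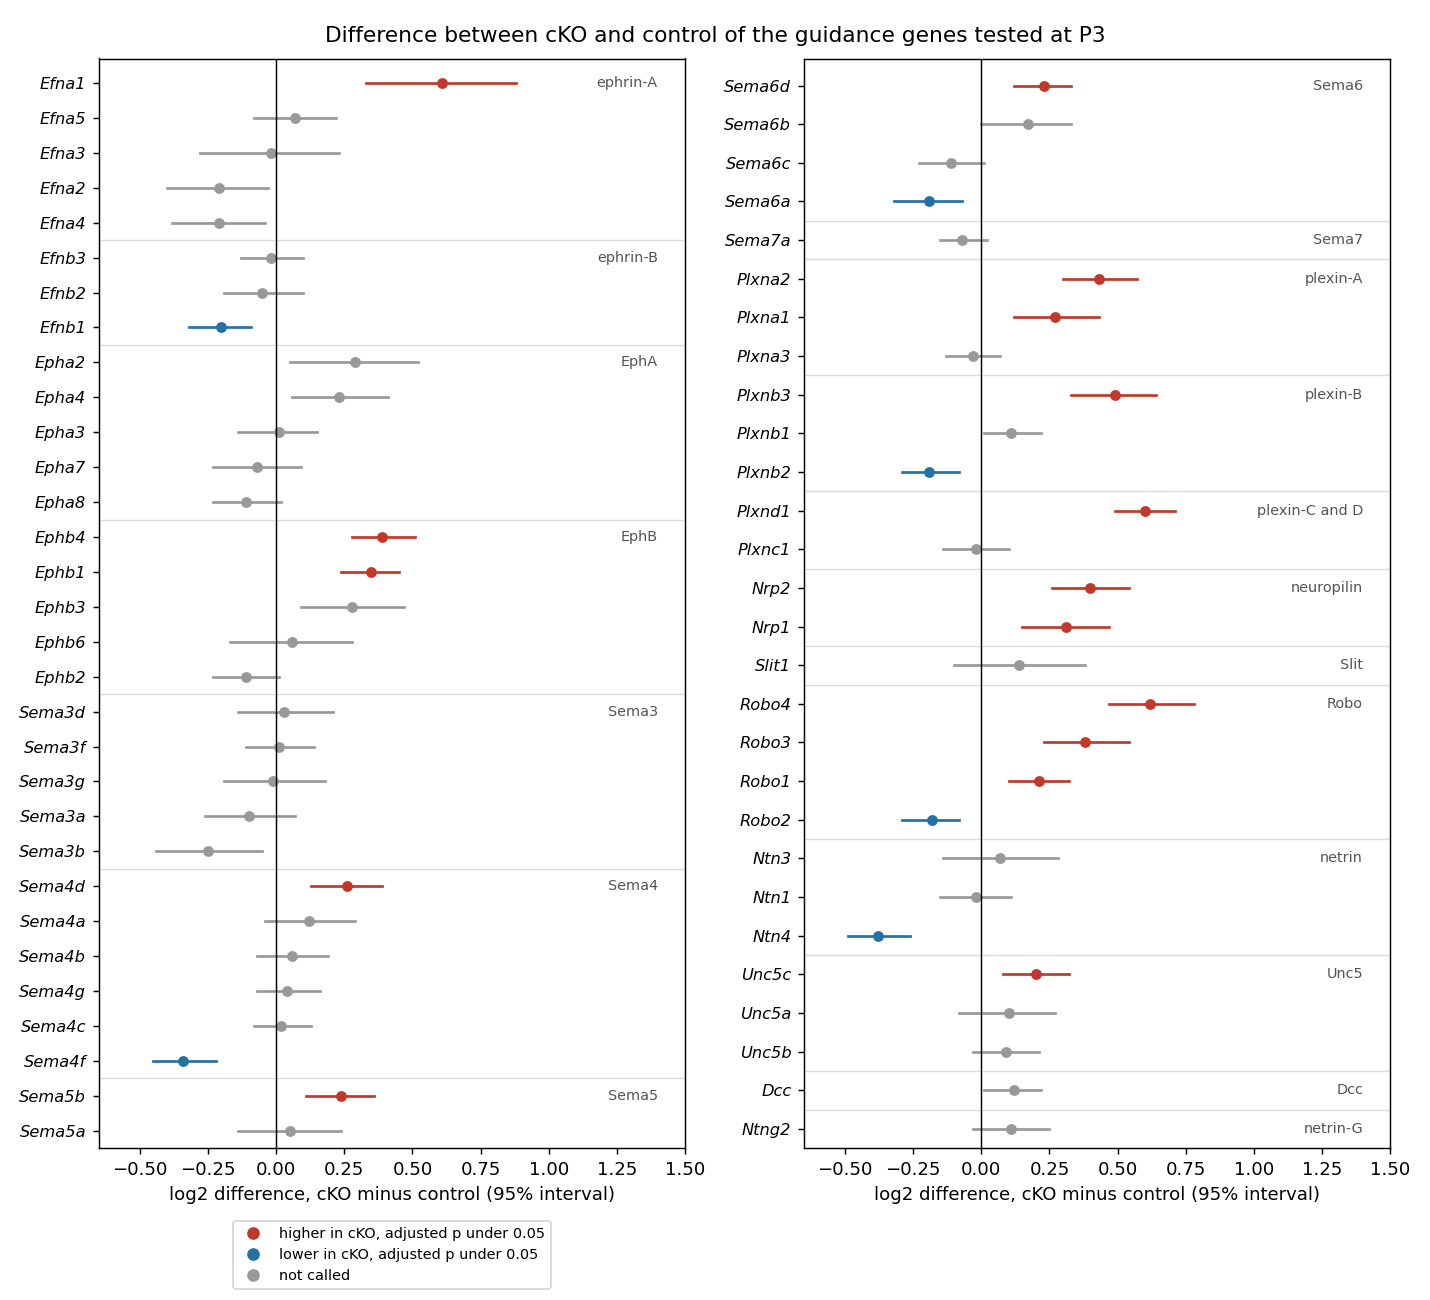
Difference of each of the 59 tested guidance genes on the log2(FPKM + 1) scale, cKO minus control, as points with 95% intervals from limma, grouped by family. The 16 genes called higher reach up to 0.62 for Robo4, and the 6 called lower reach down to -0.38 for Ntn4.

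Markers of several other cell types moved with genotype in the same libraries. Beside the counts below, 13.4% of all tested genes were called higher and 5.74% lower. Of 16 endothelial markers 15 were higher and none lower, and their summed level was 323 to 332 FPKM in cKO libraries and 188 to 204 FPKM in control libraries. Mural cell markers (8 of 9 tested higher), GABAergic interneuron markers (10 of 14 higher, 1 lower) and oligodendrocyte lineage markers (9 of 11 higher) summed to 120 to 123, 179 to 203 and 198 to 216 FPKM in cKO libraries, and to 82.7 to 83.4, 135 to 149 and 157 to 162 FPKM in control libraries. Of microglial markers 6 of 11 were higher (243 to 285 FPKM in cKO, 203 to 205 FPKM in control), of astroglial markers 6 of 13 (985 to 1020 FPKM in cKO, 933 to 957 FPKM in control), of Purkinje cell markers 4 of 7 (43.0 to 44.7 FPKM in cKO, 37.4 to 40.3 FPKM in control) and of erythroid markers 4 of 5 (1660 to 1890 FPKM in cKO, 1210 to 1480 FPKM in control). On the Purkinje list 5 low genes were not tested. Of these, Skor2 and Pcp4 averaged lower in cKO, and Foxp2, Pcp2 and Ppp1r17 averaged higher. Aldoc, also on the astroglial list, held 20.6 of the 38.6 FPKM of the Purkinje sum in control. No marker was at 0 in every library. Granule progenitor markers gave 2 higher and 5 lower of 17, summing to 1210 to 1270 FPKM in cKO libraries and 1440 to 1520 FPKM in control libraries, and Atoh1, which defines them, averaged 35.0 FPKM in cKO and 37.5 FPKM in control (limma adjusted p of 0.36). Markers of differentiating granule neurons gave 8 lower and none higher of 15, with 793 to 804 FPKM in cKO and 979 to 1040 FPKM in control, and choroid plexus markers gave 8 lower and 1 higher of 10, with 693 to 771 FPKM in cKO and 1410 to 1500 FPKM in control. Meningeal markers gave 3 higher and 1 lower of 13 (152 to 158 FPKM in cKO, 148 to 151 FPKM in control) and markers of unipolar brush cells and cerebellar nuclei 1 higher of 6 (32.7 to 33.6 FPKM in cKO, 30.9 to 32.4 FPKM in control). The last list was thus at 16.7% called, below the 19.1% of all tested genes, and the median difference of the meningeal list was 0.02. In bulk RNA, more cells of a type and more RNA per cell cannot be told apart, and the part of these shifts in the results below was not tested. The groups also differed in sex-linked transcripts: Xist averaged 24.0 FPKM in cKO and 53.7 FPKM in control, and the Y-linked Ddx3y 12.4 FPKM in cKO and 5.28 FPKM in control. Every library held both transcripts. Xist was 23.7 to 24.6 FPKM in cKO libraries and 50.2 to 56.4 FPKM in control libraries. Ddx3y was 10.5 to 13.8 FPKM in cKO libraries and 4.92 to 5.64 FPKM in control libraries. Whether each library pooled animals of both sexes, and the part of sex in the results below, was not tested. Of 467 tested genes on the X chromosome, which holds Efnb1, Plxna3 and Plxnb3, 17.8% were called, with a median difference of 0.03.

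**Figure D3:**
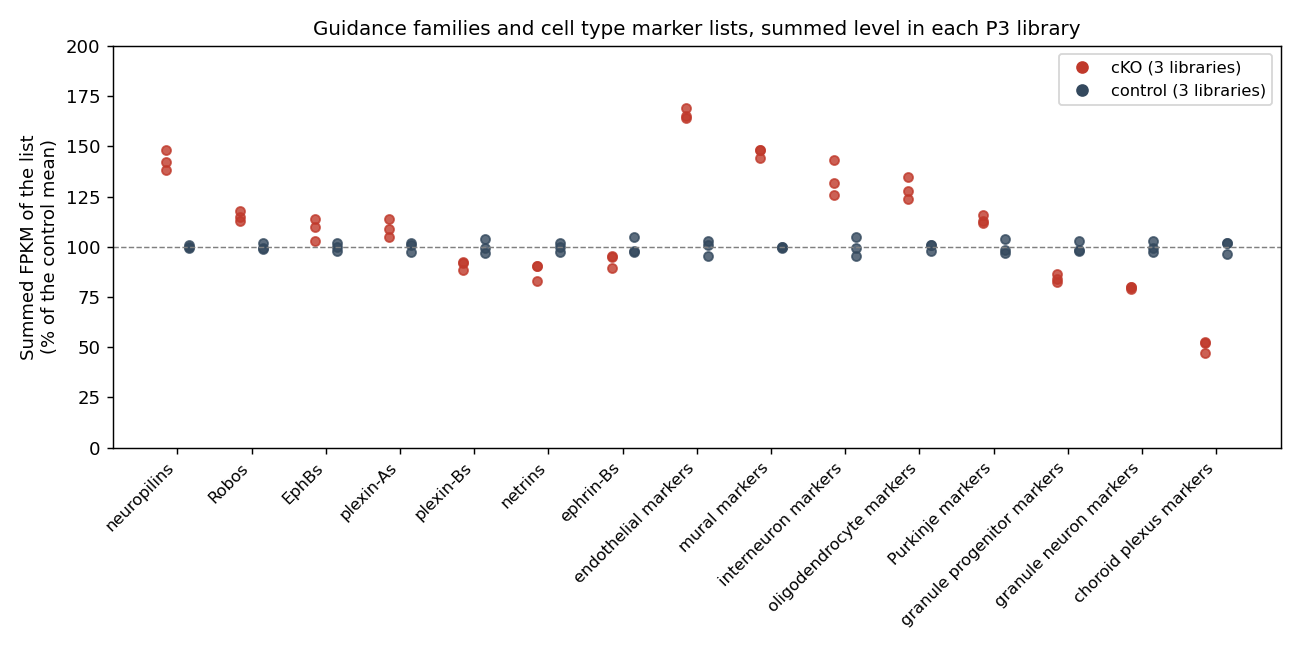
Summed FPKM of 7 guidance families and 8 cell type marker lists in each P3 library, as a percentage of the control mean of the same family or list, with the 3 cKO libraries left of the 3 control libraries. Neuropilins lie between 138% and 148% and endothelial markers between 164% and 169% in cKO. Plexin-Bs lie between 88.4% and 92.2% and granule neuron markers between 78.8% and 79.9%. Plxnb2 sets most of the plexin-B sum (174 of 198 FPKM in control), and Plxnb1 and Plxnb3 stand at 1.09 and 1.58 times control. Ttr sets most of the choroid plexus sum (1370 of 1470 FPKM in control).

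Semaphorin ligands changed in both directions and by small amounts. Of 18 tested, 3 were higher (16.7%, against 13.4% of all tested genes) and 2 lower (11.1%, against 5.74%). No class 3 semaphorin, the secreted class that signals through neuropilins and plexin-As, was called: 5 of 7 were tested, and the most abundant, Sema3f, measured 3.17 ± 0.0499 FPKM in cKO and 3.13 ± 0.088 FPKM in control (SD, n = 3 each), with a difference of 0.01 and a 95% interval of -0.11 to 0.14. Sema3b, known as a repellent in axon guidance, measured 1.02, 1.10 and 1.17 FPKM in cKO libraries and 1.31, 1.67 and 1.51 FPKM in control libraries. Its groups did not overlap, its limma adjusted p was 0.076 with a 95% interval of -0.44 to -0.05, and the authors' deposited table called it lower with an adjusted p of 0.016.

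Sema4f, a transmembrane class 4 semaphorin, fell. It measured 9.55, 9.56 and 9.98 FPKM in cKO libraries and 11.9, 12.4 and 13.2 FPKM in control libraries, a difference of -0.34 ± 0.05 (SE) with a limma adjusted p of 0.0043. Every cKO library lay below every control library. Sema4d, the ligand of Plxnb1 that is also made by oligodendrocytes, rose, with 4.36, 4.55 and 4.45 FPKM in cKO libraries against 3.75, 3.34 and 3.56 FPKM in control libraries and a difference of 0.26 ± 0.06 (SE, limma adjusted p of 0.017). Oligodendrocyte markers were higher in the same libraries (9 of 11 tested). Without cKO replicate 2, control replicate 2 or control replicate 3 the adjusted p of Sema4d reached 0.068, and it was 0.059 with quantile normalization, within a range of 0.0022 to 0.068. Sema4c, the most abundant of the class at 17.7 FPKM in cKO and 17.4 FPKM in control, had a difference of 0.02 with an interval of -0.08 to 0.13.

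Sema5b, a transmembrane semaphorin with thrombospondin repeats, rose, at 8.22, 7.77 and 7.37 FPKM in cKO libraries and 6.66, 6.54 and 6.18 FPKM in control libraries. The groups did not overlap, and the difference was 0.24 ± 0.05 (SE) with a limma adjusted p of 0.022. Leaving out cKO replicate 1, cKO replicate 2, control replicate 2 or control replicate 3 took its adjusted p to as much as 0.074, quantile normalization to 0.08 and removal of the length trend to 0.082, within a range of 0.0027 to 0.082 over all its alternatives.

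The class 6 semaphorins, transmembrane ligands of plexin-As, moved in opposite directions. Sema6d rose, at 21.5, 20.7 and 20.6 FPKM in cKO libraries against 18.5, 17.1 and 17.6 FPKM in control libraries, a difference of 0.23 ± 0.04 (SE) with a limma adjusted p of 0.013. After removal of the length trend its adjusted p was 0.062, within a range of 0.00085 to 0.062. Sema6a, which acts in the inward migration of mouse granule cells, fell, at 17.8, 16.8 and 15.7 FPKM in cKO libraries against 19.2, 18.6 and 20.1 FPKM in control libraries. Its highest cKO value lay just below its lowest control value, and the difference was -0.19 ± 0.06 (SE) with a limma adjusted p of 0.045. It was the weakest of the calls: leaving out cKO replicate 2, cKO replicate 3 or any control replicate ended it, with an adjusted p of up to 0.13, as did quantile normalization (0.058), TPM scaling (0.064) and omission of the intensity trend (0.062), within a range of 0.00011 to 0.13. The replicate block ended the Sema6a call as well (limma adjusted p of 0.089). Markers of differentiating granule neurons were lower in the same libraries (8 of 15). For Sema7a the values were 95.7, 95.9 and 95.8 FPKM in cKO libraries and 102, 100 and 99.2 FPKM in control libraries. They did not overlap, yet the difference of -0.07 had a limma adjusted p of 0.25, and the authors' deposited table gave 0.014.

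Among the semaphorin receptors most called genes rose, and the largest difference on the log2(FPKM + 1) scale was that of Plxnd1, the Sema3e receptor that is prominent in endothelium (chromosome 6, 115931772 to 115971966 on the minus strand in the deposited table). It measured 15.9, 15.2 and 14.5 FPKM in cKO libraries and 9.63, 9.87 and 9.59 FPKM in control libraries. The cKO mean was 1.57 times the control mean, and the difference was 0.60 ± 0.05 (SE) with a limma adjusted p of 0.00044. Its ligand gene Sema3e was low, with a mean of 0.166 FPKM in cKO and 0.137 FPKM in control, below the level tested. Plxnc1, the plexin that binds Sema7a, measured 14.8 FPKM in cKO and 15.1 FPKM in control, with a difference of -0.02 and an interval of -0.14 to 0.10.

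Both neuropilins rose. Nrp2, a coreceptor for Sema3f and for vascular endothelial growth factor C, measured 3.18, 3.05 and 2.98 FPKM in cKO libraries and 2.04, 2.22 and 2.00 FPKM in control libraries, with a difference of 0.40 ± 0.06 (SE, limma adjusted p of 0.0049). Nrp1, a coreceptor for Sema3a and for vascular endothelial growth factor A, measured 2.59, 2.34 and 2.54 FPKM in cKO libraries and 1.83, 1.68 and 1.93 FPKM in control libraries. Its difference was 0.31 ± 0.07 (SE, limma adjusted p of 0.019). Without cKO replicate 1, cKO replicate 3 or control replicate 2 the adjusted p of Nrp1 was up to 0.062, as it was with quantile normalization or with the length trend removed, within a range of 0.00054 to 0.072. Their summed level was 5.39 to 5.77 FPKM in cKO and 3.87 to 3.94 FPKM in control. The vascular endothelial growth factor receptor genes Kdr and Flt1, which were on both the endothelial and the partner list, were higher as well, at 14.9 and 3.39 FPKM in cKO and 8.92 and 1.99 FPKM in control.

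Of the plexin-As, which transduce class 3 and class 6 signals, 2 of 3 tested genes rose. Plxna2, the Sema6a receptor known from granule cell migration in mice, measured 6.91, 6.38 and 6.89 FPKM in cKO libraries and 5.10, 4.58 and 4.50 FPKM in control libraries, with a difference of 0.43 ± 0.06 (SE, limma adjusted p of 0.0032). Plxna1, a receptor for Sema6d, measured 5.83, 5.48 and 5.33 FPKM in cKO libraries and 4.03, 4.82 and 4.44 FPKM in control libraries. Its groups did not overlap, and the difference was 0.27 ± 0.07 (SE, limma adjusted p of 0.027). That call ended without cKO replicate 1, cKO replicate 2, control replicate 1 or control replicate 3 (adjusted p up to 0.078). It also ended with quantile normalization (0.088), the length trend removed (0.12) and the replicate block (0.065), within a range of 0.0014 to 0.12. Plxna3, on the X chromosome and the most abundant of them, measured 20.2 ± 0.701 FPKM in cKO and 20.6 ± 0.514 FPKM in control (SD, n = 3 each), with a difference of -0.03 and an interval of -0.13 to 0.07.

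The plexin-Bs split. Plxnb3, an X-linked receptor for Sema5a, rose, at 3.61, 3.47 and 3.23 FPKM in cKO libraries against 2.31, 1.98 and 2.22 FPKM in control libraries, a difference of 0.49 ± 0.07 (SE) with a limma adjusted p of 0.0035. The cKO mean was 1.58 times that of control. Plxnb2 (chromosome 15, 89039752 to 89064991 on the minus strand in the deposited table) fell, at 148, 154 and 156 FPKM in cKO libraries against 173, 181 and 168 FPKM in control libraries. Its groups did not overlap, and the difference was -0.19 ± 0.05 (SE) with a limma adjusted p of 0.031. Without any cKO replicate, or without control replicate 1 or control replicate 2, its adjusted p was up to 0.095, and it was 0.23 with quantile normalization and 0.08 with TPM scaling, within a range of 1.7e-07 to 0.23. Granule progenitor markers were lower in part in the same libraries (5 of 17). Plxnb1, the Sema4d receptor, measured 23.3, 24.4 and 23.8 FPKM in cKO libraries and 21.3, 22.9 and 21.7 FPKM in control libraries, with a limma adjusted p of 0.10 and an interval of 0.01 to 0.22.

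In the ephrin and Eph system 3 of 18 tested genes rose and 1 fell, or 22.2%, beside 19.1% of all genes, by limma. The authors' deposited table called 6 of 21 higher and 5 lower, or 52.4%, beside 23.1% of all genes it tested. Among the ligands Efna1, a lipid-anchored ephrin first known as a cytokine-induced endothelial gene, rose, at 7.72, 7.34 and 7.41 FPKM in cKO libraries against 3.49, 5.18 and 5.22 FPKM in control libraries. Control replicate 1 lay well below the other controls, and the difference was 0.61 ± 0.12 (SE) with a limma adjusted p of 0.012, which stayed at or under 0.04 without any single library. With no filter on low values it was 0.058, within a range of 0.0003 to 0.058. Efnb1, an X-linked transmembrane ephrin, fell, at 13.8, 13.4 and 13.1 FPKM in cKO libraries against 15.4, 15.0 and 16.5 FPKM in control libraries, a difference of -0.20 ± 0.05 (SE) with a limma adjusted p of 0.027. Without cKO replicate 2, cKO replicate 3, control replicate 1 or control replicate 3 that p reached 0.086, the highest over its alternatives, the lowest being 0.0008. Efnb3 and Efnb2, the second known from arteries, had differences of -0.02 and -0.05 with intervals of -0.13 to 0.10 and -0.19 to 0.10.

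Of the Eph receptors, 2 of 5 EphBs rose and none of the 5 EphAs tested was called by limma. The authors' deposited table called Epha2 and Epha4 higher, with adjusted p-values of 0.049 and 0.04. Epha2 measured 1.37, 1.95 and 1.59 FPKM in cKO libraries and 1.13, 1.33 and 1.03 FPKM in control libraries, without overlap, with a limma adjusted p of 0.088. Ephb4, the ephrin-B2 receptor of venous endothelium, measured 8.38, 8.23 and 8.64 FPKM in cKO libraries and 6.29, 6.39 and 5.85 FPKM in control libraries, with a difference of 0.39 ± 0.05 (SE, limma adjusted p of 0.0023). Ephb1, a receptor for B-class ephrins in axon guidance, measured 10.5, 9.79 and 9.98 FPKM in cKO libraries and 7.75, 7.56 and 7.84 FPKM in control libraries, with a difference of 0.35 ± 0.05 (SE, limma adjusted p of 0.0027). For both genes every cKO library lay above every control library. Ephb3 lay higher in every cKO library, at 3.60, 3.94 and 3.14 FPKM against 2.48, 2.89 and 2.90 FPKM in control libraries, with a limma adjusted p of 0.051, and the authors' deposited table called it higher with 0.02. Ephb2, the most abundant Eph gene, measured 19.5 ± 1.21 FPKM in cKO and 21.1 ± 0.442 FPKM in control (SD, n = 3 each) and was not called by limma (adjusted p of 0.17), while the authors' deposited table called it lower with 0.0094. Epha8, the most abundant EphA, measured 10.2 ± 0.674 FPKM in cKO and 11.0 ± 0.234 FPKM in control (SD, n = 3 each), with a difference of -0.11 and an interval of -0.23 to 0.02.

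All 4 Robo genes were called, 3 higher and 1 lower, while the Slit ligand genes were near or below the tested mean of 1 FPKM. Robo4, the endothelial member of the family (chromosome 9, 37313193 to 37326411 on the plus strand in the deposited table), had the largest difference of the tested guidance genes on the log2(FPKM + 1) scale. It measured 5.06, 5.18 and 4.72 FPKM in cKO libraries and 2.62, 2.88 and 3.18 FPKM in control libraries, so the cKO mean was 1.72 times the control mean. The difference was 0.62 ± 0.07 (SE) with a limma adjusted p of 0.0014. Robo3, which lets commissural axons cross the midline, rose too, at 2.17, 2.25 and 2.40 FPKM in cKO libraries against 1.45, 1.59 and 1.5 FPKM in control libraries, a difference of 0.38 ± 0.07 (SE) with a limma adjusted p of 0.0082. Robo3 and Robo4 lie 553 bases apart in the deposited table, on opposite strands with their ends facing each other, and the use of strand in counting is not given.

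The neuronal Slit receptor genes Robo1 and Robo2 moved in opposite directions. Robo1 measured 6.14, 5.99 and 5.74 FPKM in cKO libraries and 5.11, 4.94 and 5.01 FPKM in control libraries, with a difference of 0.21 ± 0.05 (SE, limma adjusted p of 0.022). Robo2 measured 7.33, 6.81 and 6.94 FPKM in cKO libraries and 8.18, 8.01 and 8.15 FPKM in control libraries, with a difference of -0.18 ± 0.05 (SE, limma adjusted p of 0.029). Neither pair of groups overlapped. The Robo1 call ended without cKO replicate 1, cKO replicate 2, control replicate 2 or control replicate 3 (adjusted p up to 0.081), with quantile normalization (0.11) and after removal of the length trend (0.14), within a range of 0.0013 to 0.14. The Robo2 call ended without cKO replicate 2, cKO replicate 3 or any control replicate (adjusted p up to 0.11). TPM scaling (0.054) ended it as well, within a range of 7.8e-06 to 0.11. With the replicate block both calls ended, at limma adjusted p-values of 0.057 for Robo1 and 0.065 for Robo2. Slit1, the only Slit gene tested, measured 0.941, 1.47 and 1.19 FPKM in cKO libraries and 0.975, 0.958 and 1.02 FPKM in control libraries, with a limma adjusted p of 0.36.

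**Figure D4:**
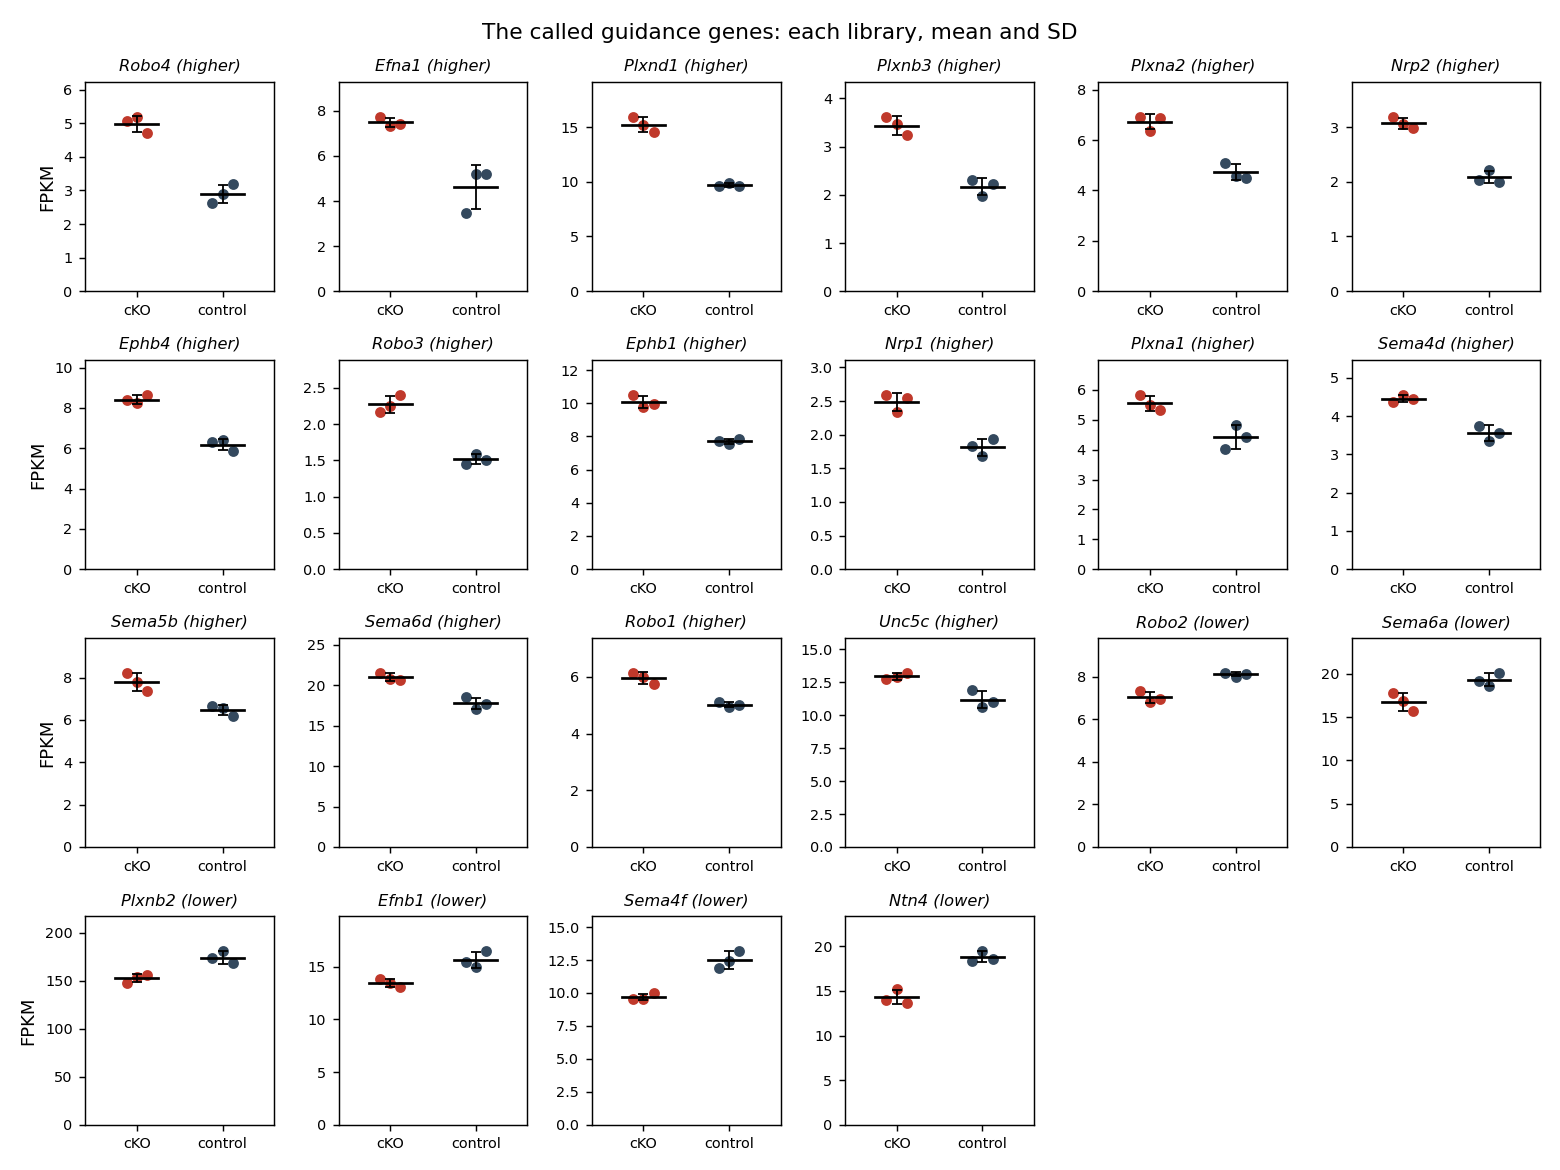
FPKM (linear axes from 0) of the 22 called guidance genes in each P3 library, ordered by their log2(FPKM + 1) difference from highest to lowest, with cKO left of control, bars at the mean and error bars of 1 SD (n = 3). Robo4 sits at 4.72 to 5.18 FPKM in cKO and 2.62 to 3.18 FPKM in control, and Ntn4 at 13.7 to 15.2 FPKM in cKO and 18.4 to 19.5 FPKM in control.

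Among the netrins Ntn4, a netrin that binds laminins of basement membranes, had the most negative difference among the tested guidance genes on the log2(FPKM + 1) scale (chromosome 10, 93476543 to 93583069 on the plus strand in the deposited table). It measured 14.0, 15.2 and 13.7 FPKM in cKO libraries and 18.4, 19.5 and 18.6 FPKM in control libraries. The cKO mean was 75.9% of the control mean, and the difference was -0.38 ± 0.05 (SE) with a limma adjusted p of 0.0029. Endothelial and mural markers moved the other way in the same libraries, and choroid plexus markers moved the same way (8 of 10 lower). Ntn1, the ligand of Dcc and of the Unc5 receptors, measured 18.3 ± 1.31 FPKM in cKO and 18.6 ± 0.482 FPKM in control (SD, n = 3 each), with a difference of -0.02 and an interval of -0.15 to 0.11.

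Of the netrin receptors, Unc5c, whose loss in mice causes ectopic granule cells at the border of the cerebellum, rose, at 12.7, 12.9 and 13.2 FPKM in cKO libraries against 11.9, 10.6 and 11.0 FPKM in control libraries. The difference was 0.20 ± 0.05 (SE) with a limma adjusted p of 0.032. The call was lost without cKO replicate 2, cKO replicate 3, control replicate 2 or control replicate 3 (adjusted p up to 0.096). It was also lost with quantile normalization (0.057), the length trend removed (0.11) and the replicate block (0.071), within a range of 0.0028 to 0.11. Dcc measured 27.4, 27.3 and 28.8 FPKM in cKO libraries and 26.4, 24.4 and 25.9 FPKM in control libraries. Its groups did not overlap, but its limma adjusted p was 0.11 with an interval of 0.01 to 0.22. Unc5b, known from endothelial tip cells, had a difference of 0.09 with an interval of -0.03 to 0.21. The netrin-G gene Ntng2, which encodes a lipid-anchored synaptic adhesion protein, had a difference of 0.11 with an interval of -0.03 to 0.25.

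Some guidance genes with well-known roles in endothelium gave differing ratios of cKO to control. Robo4, Plxnd1, Efna1, Ephb4 and Nrp1 had cKO means of 1.72, 1.57, 1.62, 1.36 and 1.37 times control. Efnb2 and Unc5b stood at 0.96 and 1.07 times control. These were grouped after their values were seen, and their share in endothelial cells was not tested.

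The 12 genes under the mean of 1 FPKM were Epha1, Epha5, Epha6, Epha10, Ntn5, Ntng1, Plxna4, Sema3c, Sema3e, Slit2, Slit3 and Unc5d. The closest to the limit was Slit2 at 0.882 FPKM, and the tested genes nearest above it were Sema5a and Slit1 at 1.09 FPKM. Slit2, with a deposited length of 25433 bases, had 2584 reads over the cKO libraries and 2613 reads over the control libraries. Relative to library depth this is 1.16 times the control level, with an exact 95% interval of 1.1 to 1.23 that covers counting error only. The authors' deposited table did not call Slit2 (adjusted p of 0.28). Epha5, a neuronal receptor for A-class ephrins, measured 0.363, 0.371 and 0.380 FPKM in cKO libraries and 0.753, 0.542 and 0.515 FPKM in control libraries, and the authors' deposited table called it lower (log2 fold change of -0.76). That table also called Epha6 lower (-0.87) and Plxna4, a receptor for Sema3a and Sema6a, higher (0.57), with means of 0.284 and 0.530 FPKM in cKO and 0.499 and 0.343 FPKM in control. Ntn5, a secreted netrin, had 1 read over the 3 cKO libraries and 33 reads over the 3 control libraries. Relative to library depth this is 0.0357 times the control level, with an exact 95% interval of 0.000878 to 0.213 that covers counting error only. The authors' deposited table gives it a log2 fold change of -4.78 ± 1.52 (SE), and its adjusted p of 1.0 there is one shared by every gene of low mean, counted here as not tested.

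Beyond the receptors, genes of the signalling pathway were also read in the same fit. Of 61 tested intracellular mediators 11 rose and 5 fell, or 26.2% beside 19.1% of all tested genes (18% higher beside 13.4%, 8.20% lower beside 5.74%), with a median difference of 0.09 beside 0.03 over all tested genes. This excess depended on the processing. After removal of the length trend 5 mediators rose and 5 fell, a share near the 16.3% of all tested genes called there. The 3 with the smallest p among the rises were Ablim1, an actin-binding protein gene of the netrin pathway, at 4.40 FPKM in cKO and 2.82 FPKM in control, Pik3r1, a regulatory subunit of phosphoinositide 3-kinase, at 9.10 FPKM in cKO and 7.05 FPKM in control, and Srgap1, whose product binds the intracellular part of Robos, at 4.03 FPKM in cKO and 2.97 FPKM in control. Their limma adjusted p-values were 0.0018, 0.0043 and 0.012. The corresponding falls were in mediators of semaphorin signalling and in the cytoskeleton: Crmp1 at 64.5 ± 0.348 FPKM in cKO and 89.9 ± 0.59 FPKM in control (SD, n = 3 each), Dpysl2 at 15.2 FPKM in cKO and 18.8 FPKM in control and Map1b at 26.2 FPKM in cKO and 30.7 FPKM in control, with limma adjusted p-values of 0.00042, 0.006 and 0.021. Crmp1 and Dpysl2 encode collapsin response mediator proteins, and Map1b a microtubule-associated protein.

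Of 38 tested coreceptors, other ligands and adhesion partners 15 rose and 5 fell, or 52.6% beside 19.1% of all tested genes (39.5% higher beside 13.4%, 13.2% lower beside 5.74%), with a median difference of 0.10. Besides Kdr and Flt1, the partner list shared with cell type lists Cspg4, called higher, Boc and Cntn2, called lower, and Cntn1, not called. Kdr and Flt1, given above, had the smallest p among the rises, followed by Chl1, a cell adhesion gene of the L1 family whose product binds neuropilin 1, at 6.67 FPKM in cKO and 4.58 FPKM in control (limma adjusted p of 0.0027). The falls with the smallest p were those of Reln, the reelin gene, at 18.6 FPKM in cKO and 24.1 FPKM in control, Cntn2, the TAG-1 gene of granule cell axons, at 41.2 FPKM in cKO and 49.7 FPKM in control, and L1cam, an X-linked adhesion gene, at 12.5 FPKM in cKO and 14.7 FPKM in control. Their limma adjusted p-values were 0.0034, 0.0092 and 0.018. Without single libraries the mediators numbered between 4 and 10 higher and between 2 and 4 lower, and the partners between 8 and 13 higher and between 2 and 4 lower.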

How the data were processed

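The labels describe poly(A) RNA made into dUTP-marked paired-end libraries. Named without roles, per the submitters' processing notes, are the build mm10 and the tools StringTie 2.1.6, HISAT2 2.2.1, cutadapt 1.9, edgeR and DESeq2. The annotation, filters and use of strand in counting are not stated. The authors deposited FPKM values for 6 P3 libraries. Columns with the prefix other than WT were taken as cKO because the table serves 3 control and 3 cKO samples. The same table holds the authors' mean signal per gene, log2 fold change with its standard error, test score and p-values, per the file headers. Multiplied by the deposited gene length, every FPKM value was a whole multiple of 1 read within 0.02, which gave the depths. A count of 3 reads in 1 kb is 0.0566 to 0.103 FPKM, covering counting error only.

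Of 29560 genes shared with GRCm38 annotation, 614 matched it in both start and end, so most of the table's positions disagree with mm10 (GRCm38), the build those notes name, and are not comparable with those of the promoters.

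Tests used limma 3.58.1 in R 4.3.3 on log2(FPKM + 1) with an intensity trend and no covariates, for genes averaging 1 FPKM or more. The fit was also run on simulated data with as many rises as falls and no length trend. That run therefore cannot show how calls behave under the imbalance and length trend of these data. Every called guidance gene is named, as is the most abundant member of a family with none called and, from the mediator and partner lists, the 3 called genes with the smallest p in each direction. Other genes were chosen after their values were seen. The members and lists were chosen with earlier results of these data known. Of 283 list entries 282 matched. Alternatives were a pseudocount of 0.1, no filter or one at 5 FPKM, scaling by TPM, upper quartile or quantiles, limma with array weights or with no trend, voom on recovered reads, removal of a length trend, a replicate block, leaving out each library, and the authors' comparison.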

Additional observations from a re-analysis of the deposited data

How the results depend on the processing

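With no filter on low values, 9 guidance genes were called higher and 3 lower, 4 mediators higher and 2 lower, 9 partners higher and 3 lower, and 1271 genes in all. At a mean of at least 5 FPKM 9 guidance genes were higher. The guidance genes called were 16.9% with no filter and 45.5% at 5 FPKM, beside 4.09% and 22.1% of all tested genes. Quantile normalization gave 10 guidance genes and 6 mediators higher. TPM scaling gave 3 guidance genes lower, 19 mediators higher and 3 lower, and 3 partners lower. Removal of the length trend gave 10 guidance genes, 5 mediators and 9 partners higher. Array weights gave 19 mediators and voom 21 mediators higher, where 27.5% and 27.6% of all tested genes were called in either direction. Limma without the trend gave 3 partners lower. The authors' deposited table called 13 guidance genes lower. The share of all called genes that was higher was 70.0%, and it was 56.8% with quantile normalization, 81.7% with TPM scaling, 52.9% after removal of the length trend and 49.6% in the authors' deposited table. Leaving out single libraries gave 11 to 15 guidance genes higher and 2 to 5 lower, 4 to 10 mediators higher and 2 to 4 lower, 8 to 13 partners higher and 2 to 4 lower, and 1207 to 2195 genes in all. The lowest of these, 1207, came without cKO replicate 2, and there were 1553 without cKO replicate 3, 1331 without control replicate 2 and 1490 without control replicate 3.

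With the replicate block 12 guidance genes were higher and 2 lower, 3 mediators higher and 3 lower, 11 partners higher and 3 lower, and 1542 genes were called in all. The guidance genes called were then 23.7% of those tested, beside 11.4% of all tested genes. The mediators called, of 61 tested, were a share slightly below that 11.4%. Deviations of libraries with the same number had correlations of -0.02, 0.04 and -0.10 for replicates 1 to 3. With 3 libraries a group these values cannot show whether libraries of the same number were paired. Sema3f had a difference of -0.07 with quantile normalization, -0.05 after removal of the length trend and -0.03 in the authors' table, and Sema7a 0.00 with quantile normalization; the cause was not tested. Of 707 values under the alternatives of the 40 genes named by the rule above, 616 kept direction and side of the threshold. Of the rest, 86 kept direction only, 1 newly passed and 4 turned sign. Genes named after their values were seen are not among these 40. Of those, Ephb3 and Sema3b passed most often, in 6 alternatives each, then Epha2, Epha4 and Efna2 in 3 each. Znhit3 was called under all alternatives, with differences of -1.12 to -0.89. With 3 libraries a group, small differences can miss the threshold.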

Other observations

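The symbol pattern also matched the long non-coding RNA gene Plxna4os1, left out by its biotype. It measured 0.156, 0.121 and 0 FPKM in cKO libraries and 0.072, 0.0605 and 0.0553 FPKM in control libraries, too few reads for a comparison.

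Ephrin-A genes that neighbour each other on chromosome 3 gave different values: Efna1 was called higher, Efna4 measured 7.44, 6.27 and 7.28 FPKM in cKO libraries and 8.68, 8.41 and 7.58 FPKM in control libraries, and Efna3 averaged 1.12 FPKM in cKO and 1.16 FPKM in control. Efna4 did not overlap between groups and had a limma adjusted p of 0.082. Efna2, on chromosome 10, averaged 9.78 FPKM in cKO and 11.5 FPKM in control with a limma adjusted p of 0.093, and the authors' deposited table called it lower with 0.024. Epha4 measured 1.94, 1.86 and 2.04 FPKM in cKO libraries and 1.70, 1.41 and 1.41 FPKM in control libraries, with a limma adjusted p of 0.068 and 0.04 in the authors' deposited table.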
